A study of Rattus norvegicus with 2 samples.

Results

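The genes examined here mark macrophages and dendritic cells, the phagocytes and antigen-presenting cells of the lymph node. They were compared between cervical lymph nodes of unstressed rats and of rats exposed to restraint stress. A list of 34 gene symbols was matched to the gene names of the array, and the brightest probe of a gene, on average over the arrays, stood for it. A probe was present for 33 of the 34 genes; Itgax was not analysed here. Of the 33 genes, 30 were well above background on both arrays, among 21096 genes that met this criterion on the C array, the RS array or both. Axl, Cd80 and Xcr1 missed this criterion on both.

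Both samples were cervical lymph nodes of male Sprague-Dawley rats aged 10 to 12 weeks. The control (C) sample came from rats without stress, and the restraint stress (RS) sample came from rats fastened to a board. The labels give no restraint time, and the study sets only its shortest restraint against C on the arrays. RNA of each group was hybridized to 1 one-color array, the sources do not state from how many rats, and no test between the groups was possible. A difference below is on the log2 scale, RS minus C, after each array was shifted to its 75th percentile. The ± after it combines the measurement errors given by the extraction software for the spots in C and in RS, and it leaves out any difference between rats.

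Macrophages of the lymph node line the subcapsular and medullary sinuses, where they take up particles, dying cells and erythrocytes from the lymph. They depend on signals through the receptor for colony stimulating factor 1, and they carry scavenger, lectin and complement receptors for uptake. Conventional dendritic cells depend on the receptor Flt3, and their cross-presenting subset depends on the transcription factors Irf8 and Batf3. When conventional dendritic cells mature, they carry costimulatory molecules to T cells in the paracortex. Whole nodes were measured, so that fewer cells of a type and less RNA per cell cannot be told apart.

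Each probe of the array was an oligonucleotide of 60 bases. The first 30 bases, 5′ to 3′, are given for the members with the largest differences and for both probes of Timd4, because the values of a member come from these stretches of its transcript.

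Clec10a: ctttttgtcaaaaaatttaagtcaaggaga
Cd14: atccctttttgcactctgaatcccagtcgg
Cd83: cagtgttttgctcttgaaggactaatcaca
Vsig4: ccatgcaatcctctttggaagcaacgacta
Ctss: ccttcactttggtgatcaaggatatattcg
Timd4, brighter probe: ccacatgttgctgggaaaattggagtctta
Timd4, dimmer probe: gcacttgaattgtcaaaataagtttgggga

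Most macrophage and dendritic cell genes differed little between the arrays. Of the 30 genes, 3 (10%) were higher by 2-fold or more on the RS array, namely Clec10a, Cd14 and Cd83, and 0 were lower by 2-fold or more. Among all 21096 screened genes, 3.46% were higher and 4.28% were lower by 2-fold or more, 7.74% in either direction, and 5.69% of the genes well above background on both arrays were past 2-fold. The median difference of the 30 genes was 0.00067, with 15 above 0 and 15 below 0, compared with a median of 0.016 over all screened genes. The middle 50% of the members lay between -0.21 and 0.19, and that of all screened genes lay between -0.20 and 0.21. The difference lay within the 95% range of the spot error for 21 of the 30 members (70%) and for 78.8% of the screened genes. The others were Clec10a, Cd14, Cd83, C1qc, Mrc1, Cd163, Timd4, Ctss and Vsig4.

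**Figure D1:**
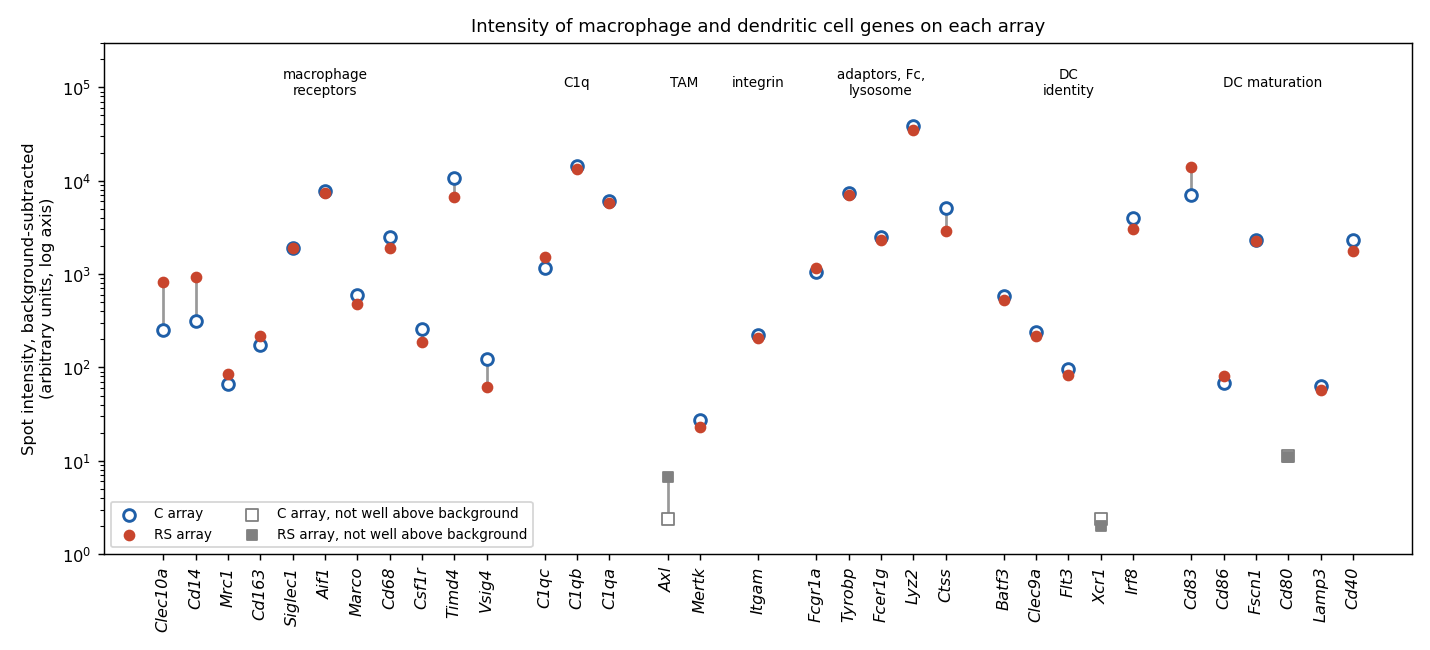
Spot intensity (arbitrary units, log axis, before scaling between arrays) of 33 macrophage and dendritic cell genes, grouped by role, on the C array (open symbols) and the RS array (filled symbols); squares mark genes not well above background. The largest gaps among the circles are those of Clec10a (252 to 825) and Cd14 (312 to 927), while the circles of Lyz2, C1qa, C1qb and Tyrobp nearly coincide.

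Among the receptors by which macrophages take up or sense their targets, 2 of 11 genes were higher by 2-fold or more. Clec10a, a lectin that binds galactose and N-acetylgalactosamine, had an intensity of 252 in C and 825 in RS, a difference of 1.81 ± 0.20 or 3.50-fold. Its probe, printed in 1 spot, lies on chromosome 10 from 57002796 to 57002855, forward strand; all probe positions are those of the deposited files, on rat build rn4. Cd14, the co-receptor that hands lipopolysaccharide to Toll-like receptor 4, had an intensity of 312 in C and 927 in RS. This was a difference of 1.67 ± 0.20, or 3.18-fold, read by 1 spot on chromosome 18 from 29374990 to 29375049, reverse strand. Clec10a and Cd14 were thus both over 3-fold higher on the RS array and well above background on the C array. Across 14 alternative settings, the difference was from 1.57 to 1.95 for Clec10a and from 1.46 to 1.82 for Cd14.

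The other receptors were within 2-fold. Vsig4, the complement receptor of resident macrophages, had an intensity of 124 in C and 61.8 in RS, which was 1.87-fold lower after scaling (-0.91 ± 0.21). Its probe lies on chromosome X from 83882671 to 83883157, reverse strand. Its difference depended on the processing, from -1.005 without scaling between the arrays to -0.56 with the normexp background correction. Vsig4 had the lowest difference of the members except with that correction, where Ctss (-0.76) and Timd4 (-0.562) lay below it. Timd4, a receptor for phosphatidylserine on dying cells, was at -0.57 ± 0.20, from an intensity of 10703 in C to 6717 in RS. Mrc1, the mannose receptor, was at 0.45 ± 0.21 (65.6 and 84.0 in C and RS), and Cd163, the receptor for haptoglobin bound to hemoglobin, was at 0.44 ± 0.21 (172 and 217). For the scavenger receptor Marco, the intensity was 603 in C and 478 in RS (-0.24 ± 0.20). Thus, among these surface receptors, the differences were spread on both sides of 0, with Clec10a and Cd14 at one end and Timd4 and Vsig4 at the other.

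The remaining 4 of these 11 macrophage genes, Csf1r, Cd68, Siglec1 and Aif1, were also within 2-fold. Csf1r and Cd68 lay below the middle 50% of the members, which was from -0.21 to 0.19, and Siglec1 and Aif1 lay inside it. Csf1r, the receptor for colony stimulating factor 1, had an intensity of 255 in C and 188 in RS (-0.34 ± 0.21). Cd68, a lysosomal glycoprotein and the macrophage marker stained in the study's sections, had an intensity of 2479.9 in C and 1915 in RS. Its difference of -0.27 ± 0.20 was below 0 in each of 14 alternative settings, which process the same spot of the same arrays again. In the sections, the study counted more CD68-stained cells in the medullary sinus after its shortest restraint than in C. That count is of cells stained for protein in 1 region, whereas the array measured RNA of the whole node. Siglec1, the sialic acid receptor of sinus macrophages, was at 0.079 ± 0.20 (1906 and 1881 in C and RS). Aif1, a calcium-binding protein of macrophages, was at 0.019 ± 0.14 (7781 and 7366). Of these 4 genes, each had a difference within the 95% range of its spot error.

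**Figure D2:**
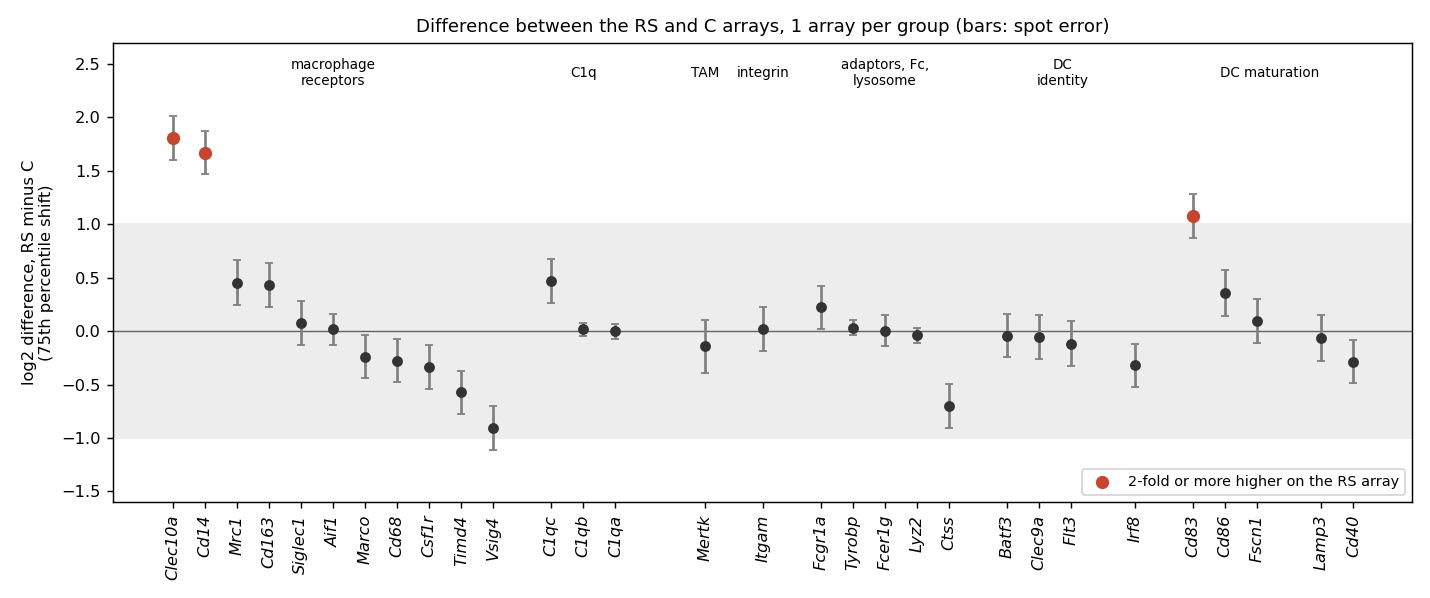
The log2 difference (RS minus C, after the 75th percentile shift) of the 30 macrophage and dendritic cell genes well above background, grouped by role; each point is 1 gene, bars are the spot error on either side, and the gray band is within 2-fold. Clec10a (1.81), Cd14 (1.67) and Cd83 (1.08) lie above the band, and Vsig4 (-0.91) lies lowest within it.

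The 3 chains of complement C1q, which macrophages and dendritic cells secrete and which tags immune complexes and dying cells, are encoded side by side. Their probes lie on the reverse strand of chromosome 5 within 15108 bases, from 155647530 to 155662637. C1qa had an intensity of 6104 in C and 5693 in RS, and C1qb had 14243 and 13456. Both probes were printed in 10 spots, and the differences were -0.0022 ± 0.066 for C1qa and 0.016 ± 0.065 for C1qb. C1qc, read by 1 spot, had an intensity of 1168 in C and 1508 in RS, a difference of 0.47 ± 0.20. The C1qa and C1qb values were therefore equal within their spot error, and the C1qc value lay above both.

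The adaptor proteins and lysosomal enzymes of myeloid cells were likewise close to 0, with 1 exception. Tyrobp, the adaptor of activating myeloid receptors known as DAP12, was at 0.030 ± 0.070 (7416 and 7074 in C and RS). Fcer1g, the gamma chain shared by Fc receptors, was at 0.0035 ± 0.14 (2483 and 2325), and Fcgr1a, the high-affinity receptor for immunoglobulin G, was at 0.22 ± 0.20 (1052 and 1146). Lyz2, which encodes lysozyme, was at -0.040 ± 0.066 (38650.5 and 35108), and the files list a second RefSeq transcript for its brightest probe. Ctss encodes cathepsin S, the lysosomal protease that trims the invariant chain of class II molecules. It had an intensity of 5033 in C and 2890 in RS, a difference of -0.70 ± 0.20, or 1.63-fold lower, read on chromosome 2 from 190466474 to 190466533, forward strand. Ctss was thus the one gene of this group outside the 95% range of its spot error.

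Mertk, a receptor tyrosine kinase for the uptake of dying cells, had the lowest intensity of the members that met the background criterion, 27.0 in C and 22.9 in RS, a difference of -0.14 ± 0.25. Axl, a receptor of the same family, had an intensity of 2.37 in C and 6.69 in RS and was not well above background on either, so that no fold is given. Itgam, the alpha chain of complement receptor 3, was at 0.021 ± 0.21 (220.5 and 209 in C and RS).

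The genes of conventional dendritic cell identity did not reach 2-fold in either direction. Clec9a, a receptor for exposed actin of dead cells, had an intensity of 242 in C and 218 in RS (-0.055 ± 0.20). Flt3, the cytokine receptor that dendritic cells need for their development, was at -0.12 ± 0.21 (95.4 and 82.1). Irf8 and Batf3, transcription factors of the cross-presenting subset, were at -0.32 ± 0.20 and -0.042 ± 0.20, with intensities of 4018 and 588 on the C array and 3005 and 533 on the RS array. Irf8 is also expressed by B cells, which are abundant in the node. All 4 differences were below 0 and within the 95% range of the spot error, and those of Clec9a, Flt3 and Batf3 turned above 0 when the arrays were scaled so that the B and T cell markers had a median difference of 0, a scaling chosen after the data were seen. Xcr1, the chemokine receptor of the same subset, had an intensity of 2.36 in C and 2.03 in RS, neither well above background.

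Among the genes of dendritic cell maturation and costimulation, 1 of 5 was higher by 2-fold or more. Cd83, a surface protein of mature dendritic cells that activated B cells also express, had an intensity of 7099 in C and 13988 in RS. The difference was 1.08 ± 0.20, or 2.11-fold, read by 1 spot on chromosome 17 from 26705868 to 26705927, reverse strand. It lay within 1 spot error of the 2-fold threshold and fell under it without scaling between the arrays (0.98). Cd86, a ligand of the T cell receptors CD28 and CTLA-4, was at 0.36 ± 0.21 (67.5 and 80.9 in C and RS). Cd40, the receptor for CD40 ligand of helper T cells, was at -0.28 ± 0.20 (2303 and 1767). Lamp3, a lysosomal protein of mature dendritic cells, was at -0.061 ± 0.21 (63.2 and 56.6), and Fscn1, the actin-bundling protein of their dendrites, was at 0.094 ± 0.20 (2289 and 2282). Among these genes Cd83 alone passed 2-fold, and the other 4 lay within the 95% range of their spot error. Cd80 did not meet the background criterion, with intensities of 11.2 in C and 10.9 in RS, whereas Mertk, the nearest member that met it, had 27.0 and 22.9.

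**Figure D3:**
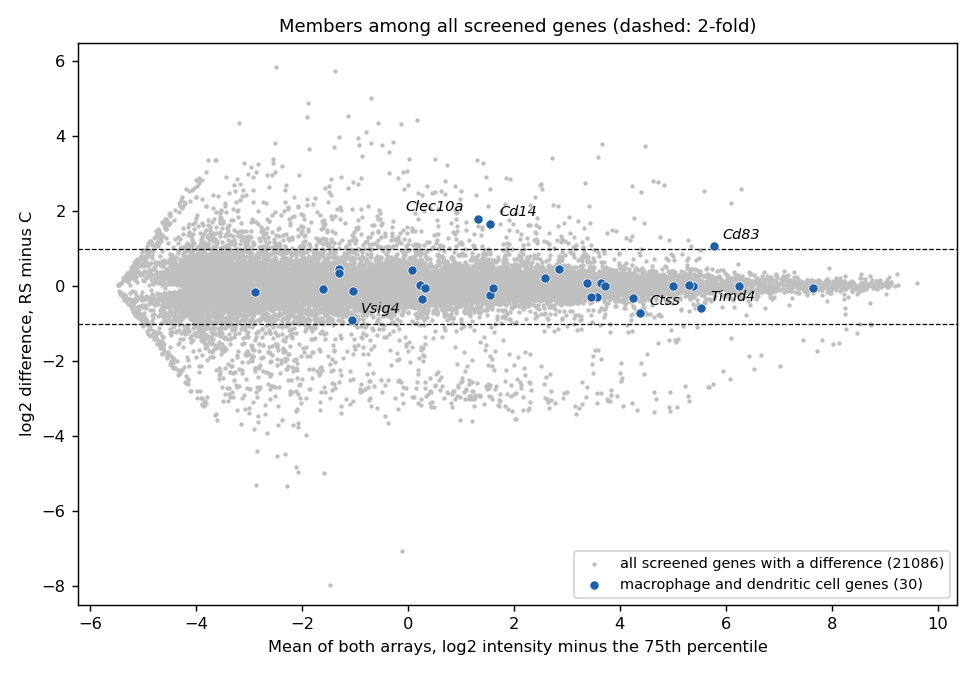
Log2 difference (RS minus C) against the mean log2 signal of both arrays relative to the 75th percentile, for 21086 screened genes with a difference (gray) and 30 macrophage and dendritic cell genes (blue); dashed lines mark 2-fold. The members lie from -2.88 upward on the signal axis, and 27 of the 30 lie between the dashed lines.

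For 8 members, several probes were well above background, which gave separate readings of the same RNA sample. The probes of Timd4 differed most, by 0.61 on the log2 scale. Its brighter probe, on chromosome 10 from 31929373 to 31929432, was at -0.57 ± 0.20, and its dimmer probe, which lies 1860 bases away in genome coordinates and had intensities of 3443 and 3297 in C and RS, was at 0.036 ± 0.20. The lower value of Timd4 thus rests on 1 of its 2 probes, and with the mean over both it was -0.27. The 3 probes of Batf3 and the 3 probes of Lyz2 were all below 0, as were both probes of Irf8 and of Cd40. For the 7 members other than Timd4, the probes differed by 0.027 to 0.20. Clec10a, Cd14, Cd83, Vsig4 and Ctss had 1 probe each, printed in 1 spot, so that no second reading was available for the largest differences.

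**Figure D4:**
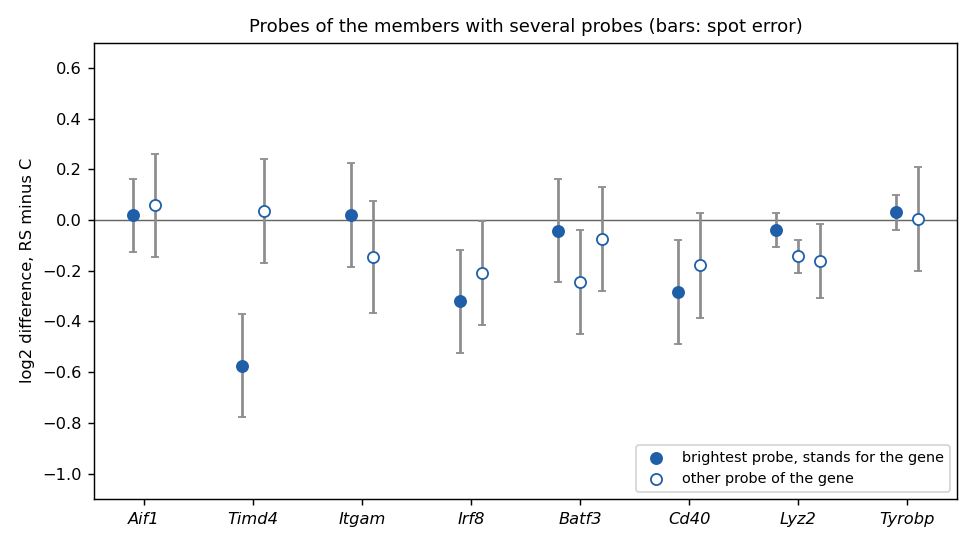
Log2 difference (RS minus C) of each probe well above background for the 8 members with several probes; filled circles are the brightest probe, open circles the others, and bars the spot error on either side. The probes of a gene lie within 0.20 of each other except for Timd4, at -0.57 and 0.036.

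Further genes of these cell types, which were not members, gave a similar picture. Of 31 other macrophage genes, 1 was higher and 1 was lower by 2-fold or more, with a median of 0.090. Trem2, a lipid receptor that signals through Tyrobp, had an intensity of 36.1 in C and 124 in RS, a difference of 1.88 ± 0.073. Msr1, a scavenger receptor, had 45.5 in C and 13.0 in RS, or -1.71 ± 0.30. Of 23 other dendritic cell genes, 0 were past 2-fold and 18 were below 0, with a median of -0.11, which turned to 0.040 when the B and T cell markers were set to 0. The lowest of them, Il15, was at -0.90 ± 0.22, and the highest, Cd274, at 0.33 ± 0.20.

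Of 10 growth factors and ligands of these cells, 1 had a difference or bound past 2-fold. Xcl1, the chemokine ligand of Xcr1 made by natural killer and T cells, had an intensity of 233 in C and 95.9 in RS, a difference of -1.18 ± 0.21. Csf1, the ligand of Csf1r, was at 0.20 ± 0.20, and Flt3lg, the ligand of Flt3, was at -0.096 ± 0.20. Thus neither Csf1 and Flt3lg nor the receptors that they bind reached 2-fold. Csf2, the granulocyte-macrophage colony stimulating factor, was above background on the RS array only, with 2.41 in C and 15.5 in RS, and was at least 1.75-fold higher there.

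A list of 20 genes that macrophages express on activation, many of which other cells of the node can express too, was also examined. It was chosen with earlier results of these data known, so its values describe these genes and test nothing about activation. Of the 17 that stood well above background in C or RS, 7 (41.2%) were higher and 0 lower by 2-fold or more. Among all screened genes, 3.46% were higher and 4.28% lower. All 17 were above 0, with a median of 0.76, and Nos2, Il12a and Retnla were not well above background. Ccl2, the main chemokine for monocytes, had intensities of 1160.3 in C and 14379.7 in RS (3.73 ± 0.068), though its probe holds a run of alternating A and G bases. Ptgs2, the inducible cyclooxygenase, was at 3.67 ± 0.21, Il6 at 3.40 ± 0.35, Socs3, an inhibitor of cytokine signaling, at 2.81 ± 0.070, and Il10 at 2.20 ± 0.24. The C intensities of Il6 (9.99) and Ptgs2 (14.6) lay near the lowest signal above background on that array (9.45). Those of Il10 and Socs3 were 25.3 and 1764. Il1rn and Il1r2, which restrain interleukin 1, were at 1.38 ± 0.068 and 1.11 ± 0.21. The interleukin 1 genes themselves were also above 0, Il1b at 0.998 ± 0.20, just under 2-fold, and Il1a at 0.76 ± 0.21. Tnf, at 0.071 ± 0.20, and Ccl4, at 0.0078 ± 0.21, were close to 0, though the probe of Tnf also holds a run of alternating A and G bases. Of 12 genes of heme and iron handling, by which macrophages recycle erythrocytes, 0 were past 2-fold. The highest of these was the heme oxygenase gene Hmox1, at 0.95 ± 0.20 (497 and 899 in C and RS), and the iron exporter gene Slc40a1 was at -0.047 ± 0.20.

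Markers of other cells also differed between the samples. Of 9 erythrocyte markers, the 6 that were well above background were all higher by 2-fold or more, with a median of 2.58 and a summed intensity of 9985 in C and 55867 in RS; Slc4a1 and Epb42 were not well above background, and Hba-a2 was not analysed here. Of 10 fat cell markers, 6 were higher by 2-fold or more among the 8 that were well above background, with a median of 2.11 and a summed intensity of 9617 in C and 22566 in RS. Plin1 and Pck1 were not well above background. Of 10 neutrophil markers, S100a8 (3.99 ± 0.27) and S100a9 (3.78 ± 0.22) were past 2-fold. The summed intensity of the 6 above background was 293 in C and 1062 in RS, of which S100a8 gave 19.3 and 286 and S100a9 gave 36.3 and 464. The others were within 2-fold, with Csf3r at 0.11 ± 0.29, Lcn2 at 0.31 ± 0.32 and Fcnb at 0.52 ± 0.21. Cxcr2, above background on the RS array only, had intensities of 10.1 in C and 15.6 in RS, a difference of 0.73. The list median was 0.63. In its sections, the study found CXCR2 protein in CD68-stained macrophages, and Cxcr2 RNA in macrophages and medullary lymphocytes. The granule genes Mpo, Elane, Ngp and Camp did not stand well above background in C or RS. Fat tissue holds macrophages and neutrophils express Cd14; the part of these cells in the values of Clec10a, Cd14 and Trem2 was not tested.

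The lymphocyte markers that define the tissue were well above background on both arrays. The 9 B cell markers, among them Cd79b with 5532 in C and 4993 in RS, had a median of -0.049. The 10 T cell markers, among them Cd3g with 13692 and 11604, had a median of -0.16. Of these 19 genes, 0 were past 2-fold. Of 10 endothelial and stromal markers, Col1a1 (1.24 ± 0.20) and Pdpn (1.16 ± 0.14) were higher by 2-fold or more, with a list median of 0.26, and the 3 salivary gland and muscle markers well above background had a median of 0.25.

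**Figure D5:**
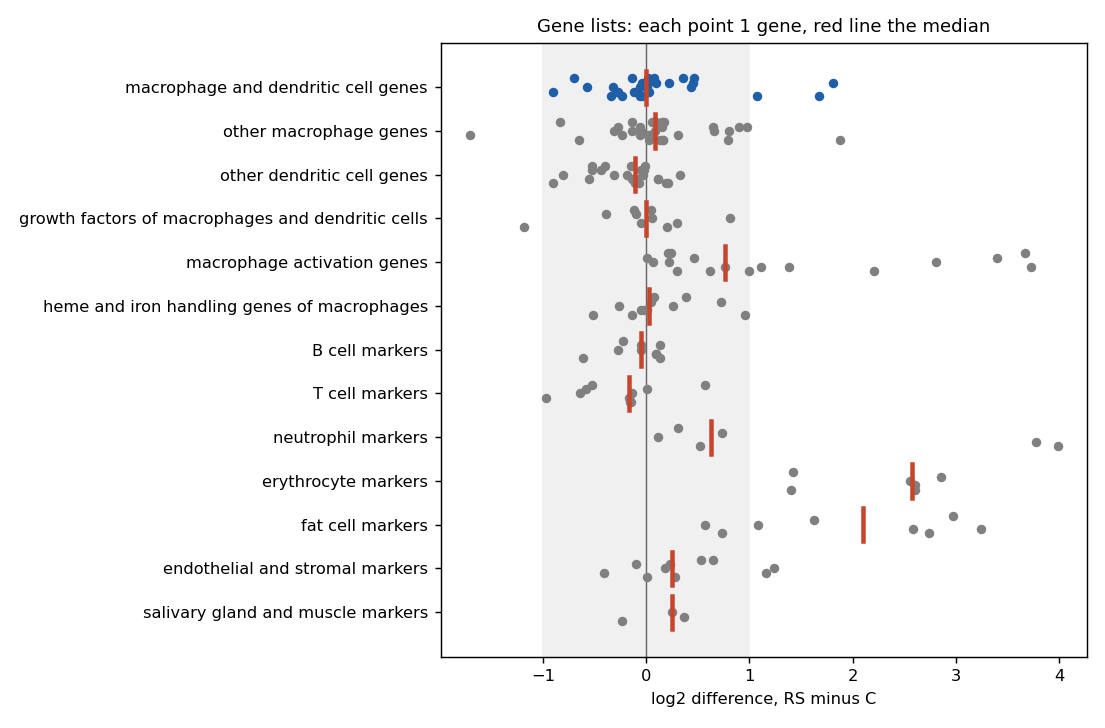
Log2 difference (RS minus C) of the genes of 13 lists; each point is 1 gene, the red line is the median of the list, and the gray band is within 2-fold. The medians of the macrophage and dendritic cell genes (0.00067) and of the B cell markers (-0.049) lie near 0, and those of the erythrocyte (2.58) and fat cell (2.11) markers lie above the band.

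Windows at the starts of genes were examined for what the members share in sequence. RefSeq windows of the GRCr8 assembly, from 250 bases before to 50 bases after the start of a gene, were matched for 22 of the 30 members. Clec10a, the member with the largest difference, was among those without a window. The motif of PU.1, the transcription factor that directs myeloid development, was searched on both strands as GAGGAA, letters that neither of the other motifs can contain. It was found in 12 of the 22 windows (54.5%), compared with 27.6% of 33469 windows of all genes. Csf1r, Cd14, Cd68, Marco, Mrc1, Itgam, Ctss, C1qb, Lyz2, Batf3, Cd86 and Lamp3 held it. The motif of 10 letters for NF-kB was found in 2 of the 22 windows (9.09%), those of Cd83 and Cd86, and in 4.18% of all windows. The 15-letter glucocorticoid response element was found in 1 window, that of C1qb (4.55%), and in 0.218% of all windows. A match describes only the letters of the window and shows neither binding nor use.

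The windows of Csf1r, of Cd14 and of Cd83 are given from 250 bases before to 30 bases after the start, 5′ to 3′ along the gene, because Csf1r marks macrophages broadly and Cd14 and Cd83 were past 2-fold. The start is that of the RefSeq record. In Csf1r the bases after it open with atg, the letters of a start codon, so that transcription may begin elsewhere. Capitals mark the matches, which read TTCCTC where PU.1 lies on the opposite strand. In Cd83 they mark NF-kB matches on both strands that overlap. The window of Csf1r is chr18:56834129-56834408 on the forward strand, that of Cd14 is chr18:28611129-28611408 on the reverse strand, and that of Cd83 is chr17:21112648-21112927 on the reverse strand, all in GRCr8.

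Csf1r: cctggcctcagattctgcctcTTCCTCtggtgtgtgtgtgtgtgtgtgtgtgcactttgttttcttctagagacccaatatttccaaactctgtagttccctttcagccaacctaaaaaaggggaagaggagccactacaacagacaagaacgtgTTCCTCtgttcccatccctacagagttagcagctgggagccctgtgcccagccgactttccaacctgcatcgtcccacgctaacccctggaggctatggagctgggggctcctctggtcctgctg
Cd14: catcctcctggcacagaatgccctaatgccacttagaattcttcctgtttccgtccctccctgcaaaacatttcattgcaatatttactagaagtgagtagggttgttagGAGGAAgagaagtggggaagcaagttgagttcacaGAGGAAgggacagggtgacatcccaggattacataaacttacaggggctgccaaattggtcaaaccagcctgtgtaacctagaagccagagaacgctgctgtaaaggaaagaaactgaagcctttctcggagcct
Cd83: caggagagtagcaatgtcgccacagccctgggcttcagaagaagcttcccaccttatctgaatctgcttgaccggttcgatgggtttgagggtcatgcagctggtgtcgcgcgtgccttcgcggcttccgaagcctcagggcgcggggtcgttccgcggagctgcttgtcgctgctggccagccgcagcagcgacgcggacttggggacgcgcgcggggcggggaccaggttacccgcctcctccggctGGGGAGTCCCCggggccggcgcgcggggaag

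Csf1r and Cd14 each held 2 PU.1 matches. Cd83 held 0 PU.1 matches and 2 places that match the NF-kB motif, the second of which begins 24 bases after the start, runs past the bases printed and is left in lower case. Cd86, the other member with an NF-kB match, differed by 0.36 ± 0.21, against 1.08 ± 0.20 for Cd83.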

How the data were processed

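Total RNA of cervical lymph nodes from 1 C and 1 RS sample was labeled with Cy3 and hybridized to SurePrint G3 Rat GE 8X60K arrays. The authors deposited spot intensities, corrected for background within each array by Feature Extraction 11.5.1.1 and not yet scaled between arrays. A second deposited file holds log2 values without a stated scale. For all 45598 probes (100%) these lay within 0.1 of the log2 intensity minus the 75th percentile as computed here, and they served as an alternative. The headers place both arrays on 1 slide and in 1 scan, which predates the period that the methods give for the animal work, and they name another scanner model than the methods; the reason is not given in the sources used here.

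Control spots and outlier spots (489 for C, 660 for RS) were left out of 58717 noncontrol spots an array. Log2 intensities were averaged over the remaining spots of each probe before subtraction of the array's 75th percentile (intensity of 189 on C, 176 on RS). A probe was well above background when more than 50% of its spots were marked so, as were 54.7% of probes on C and 54.9% on RS; no probe was saturated. A gene above background on 1 array only was given a lower bound against the dim array's lowest signal above background (9.45 on C, 8.52 on RS). Where the gene's own signal on the dim array was higher than that, its own signal was used. For 10 of the 21096 genes, no lower bound was obtained. The threshold was 2-fold, as in the study. With 1 array per group, precision is limited by the number of arrays, and no p-value was computed. The members and the 12 other lists were chosen with earlier results of these data known. The text names every member, up to 5 genes past 2-fold of each other list, and further genes that were chosen after their values were seen. RefSeq accessions gave the same symbol for 26 of the 30 members. The steps were tested on simulated arrays. Of the alternatives, 14 were planned and 1 was added after the data were seen. Calculations used Python 3.11.15, numpy 2.4.6, pandas 2.3.3, R 4.3.3 and limma 3.58.1, and figures used matplotlib 3.10.9.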

Additional observations from a re-analysis of the deposited data

How the results depend on the processing

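No paired analysis was possible because C and RS had 1 array each, and no replicate could be left out. The number of higher members was 3 in the main setting and between 2 and 4 under 15 alternatives. The low value came without normalization, where Cd83 fell under 2-fold, and the high value without a filter on background, where Axl was counted. The number of lower members was 0 except without normalization, where Vsig4 made it 1. Of 420 values of single members under the alternatives, 405 moved by less than their spot error and 0 of the called members changed sign. The median of the members lay between -0.098 without normalization and 0.15 with the B and T cell markers set to 0, a setting chosen after seeing the data that shifts the RS array by 0.15 and the median of all genes to 0.16. That setting changed the share of higher genes among all those past 2-fold from 44.7% to 55.4%, and omitting probes that hold an alternating A and G run changed it to 59.0%, while 0 of the members have such a probe. With the normexp background correction, which adds an offset of 50 to all signals, 234 genes were higher and 378 lower, compared with 730 and 903; without a filter on background, the counts were 2031 and 2148. Lower genes numbered 601 when both arrays had to be above background and 498 without the alternating probes. With normexp, the list medians were 0.49 for macrophage activation genes, 0.27 for neutrophil markers, 1.90 for erythrocyte markers and 1.40 for fat cell markers. The median of the macrophage activation genes was 0.998 where the measured ratio replaced the lower bound for genes above background on 1 array, and that of the fat cell markers was 1.36 without a filter on background. The cause of these shifts was not tested. The signal over background limits Axl, Cd80 and Xcr1, for which no fold is given.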
